A study of Sus scrofa with 12 samples.

Results

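The genes described here are those that were more than 32-fold higher in back subcutaneous fat than in longissimus dorsi muscle of Dingyuan pigs, a Chinese native breed that lays down much fat. A gene was a member when its mean log2(FPKM + 0.1) over the 6 back fat libraries exceeded that over the 6 muscle libraries by more than 5 and its mean in back fat was above 10 FPKM (fragments counted per unit of transcript length and of mapped fragments). The members were thus selected on the fat and muscle values themselves, and that contrast is described without a test. Of the 31903 gene identifiers in the deposited table, 163 met both limits, and 159 remained as members after LEP, FASN, PRG4 and ALDH1L1 were set aside by name. Of the members, 135 carried a gene name and 24 carried only an Ensembl identifier. The fat was compared between sows with low (LBF) and high (HBF) backfat thickness, and the muscle between sows with low (LIMF) and high (HIMF) intramuscular fat, with 3 libraries in each of the 4 groups. The labels give an age of 300 days and no treatment for any pig. By the study's methods the sows had been picked for like body weight and for very thick or very thin backfat, so the muscle groups come from pigs already chosen on backfat as well. The sources do not state whether any fat and muscle libraries came from the same pig, and where both contrasts are compared all 12 libraries are treated as independent. Each library is taken as 1 pig, so that the p-values measure the spread between 3 libraries of a group.

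White fat cells store triglyceride in a single large droplet, coated by perilipins and CIDE proteins, and make part of its fatty acids themselves from glucose. They also secrete hormones such as adiponectin and leptin. Fat tissue further holds fibroblasts that lay down collagen, vessels and resident macrophages, which take up lipid and debris. A longissimus sample consists mostly of muscle fibres, with fat cells lying between the fibre bundles as intramuscular fat. In such bulk samples fewer cells of a type and less RNA per cell cannot be told apart.

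All 7 muscle fibre markers had a higher mean in muscle. Of 13 white fat cell markers found in the table, 7 are members and LEP also met the limits, so that their higher mean in back fat was fixed by the choice. Of the 5 others, 4 (LIPE, PLIN4, PNPLA2 and ACVR1C) had a higher mean in back fat and GPD1 had a higher mean in muscle. The FPKM listed per library summed to between 420982 and 517796, and the files show no read counts, so the depth behind a value is unknown. Some libraries stood apart. The 7 muscle fibre markers summed to 306 FPKM in LBF3 and to between 0.836 and 2.14 in the other 5 fat libraries. A list of 13 genes known for expression in kidney, chosen after its values were seen, summed to 33.7 FPKM in LBF2 and 47.4 FPKM in LIMF2, against 1.03 to 4.44 in the other fat libraries and 0.206 to 0.629 in the other muscle libraries. In that list UMOD, the main protein of normal urine, was at 10.4 FPKM in LBF2 and 11.7 FPKM in LIMF2 and at most 0.265 FPKM elsewhere. LBF2 was the highest fat library for 23 of the 159 members and LIMF2 the highest muscle library for 43, and both held for 15. The lead in muscle was slight in some of these, as in NMRK1 (0.542 against 0.541 FPKM), and large in PCK1. The same count over all genes was not made, so nothing about the members is read from it. Values without these libraries are given where a result rests on them, and their part in the results was not tested. Exact zeros are a further limit. ACTA1 and CKM, which every muscle fibre uses, were listed at 0 in 4 and 2 of the 6 muscle libraries and at 7172 to 9637 FPKM in the others, so a listed 0 is not read as absence.

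Levels of the members in back fat ran from 10.2 FPKM for BMAL2, a clock gene, to 13582 FPKM for COX1. Their median was 58.1 FPKM, with 57 members above 100 FPKM. In muscle the median was 0.611 FPKM, with 99 members under 1 FPKM and 9 above 10. The level in muscle was 1.22% of that in back fat at the median. For 156 members every fat library was above every muscle library, which the choice of members largely fixes. Apart from COX1, the members made up between 5.82% and 8.34% of all FPKM in a fat library and between 0.0635% and 0.105% in a muscle library.

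**Figure D1:**
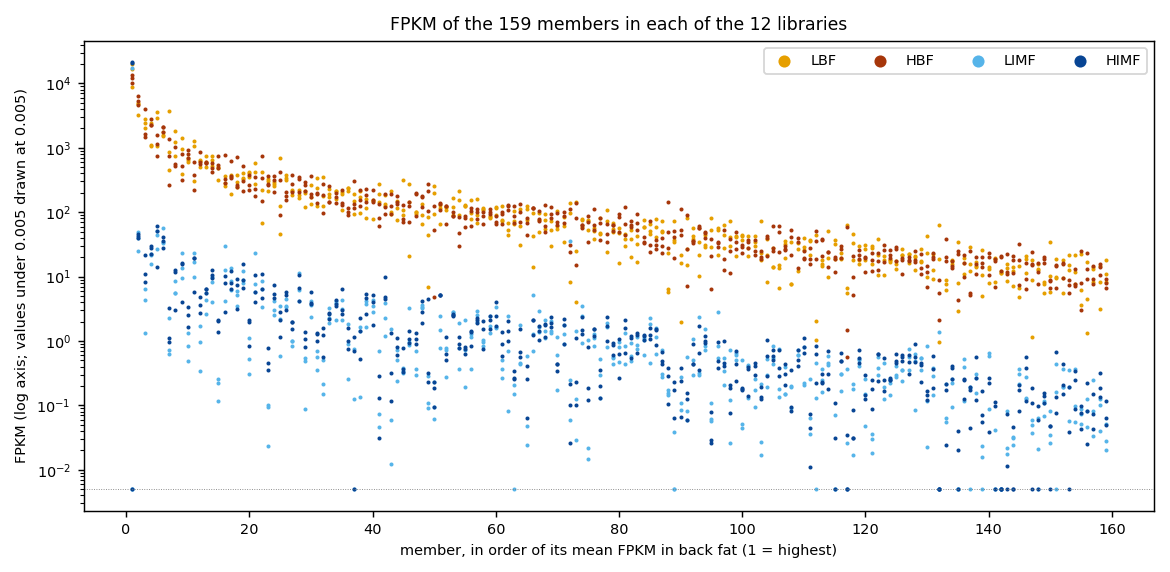
FPKM of each of the 159 members in the 12 libraries (log axis), ordered from left to right by mean FPKM in back fat, with 1 point per library coloured by group and values under 0.005 drawn at 0.005. The orange and brown fat points lie above the blue muscle points except in 3 members, among them COX1 at the far left, which is listed at 0 in 3 muscle libraries and lies at 17453 FPKM or more in the other 3.

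The 3 exceptions were COX1, PCK1 and an unnamed gene. COX1, a mitochondrial subunit of cytochrome c oxidase, had listed muscle values of 17453, 0 and 0 FPKM (LIMF) and 21449, 20741 and 0 FPKM (HIMF), and its back fat values were 8818, 19874 and 17007 FPKM in LBF and 10139.8, 12116 and 13538 FPKM in HBF. It therefore entered the members only through 3 listed zeros, and its 3 other muscle libraries lay above most of the fat libraries. PCK1, the cytosolic phosphoenolpyruvate carboxykinase that supplies glycerol 3-phosphate in fat and glucose in liver and kidney, was at 0.0587, 36.0 and 0.247 FPKM in LIMF and 0.10, 0.213 and 0.0262 FPKM in HIMF. LIMF2, the muscle library with the kidney genes, thus exceeded the next muscle library more than 100-fold, and the lowest fat library held 8.23 FPKM. ENSSSCG00000023684 was listed at 0 in every muscle library but LIMF2, which held 1.40 FPKM.

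Among members with a known fat cell role, FABP4, which carries fatty acids inside the cell, was the highest at a mean of 4874 FPKM in back fat and 40.7 FPKM in muscle (chromosome 4, 55096400 to 55101209, Sscrofa11.1). ADIPOQ, which encodes adiponectin, followed with 2418 and 8.90 FPKM (chromosome 13, 124633906 to 124646237). SCD, which introduces the double bond of oleic acid, had means of 1226 and 1.501 FPKM (chromosome 14, 111461560 to 111478033). PLIN1, the coat protein of the fat droplet, had means of 639 and 2.38 FPKM (chromosome 7, 55237517 to 55250797). The droplet and lipid binding group of 7 members stood at a median of 0.608% of the fat level in muscle, and the 13 members of the extracellular matrix stood at 1.96%. Roles were assigned after the members were known, and the spread within each group was wide, from 0.142% for POSTN to 2.44% for COL1A2 in the matrix group.

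The muscle level of a few members was substantial. COL3A1, a fibrillar collagen of soft tissue, averaged 41.4 FPKM in muscle, FABP4 40.7, VIM, the intermediate filament of mesenchymal cells, 38.2, and ANXA2, a membrane-binding annexin, 23.5 FPKM. At the other end CLPSL2, a colipase-like gene, was listed at 0 in all 6 muscle libraries, and 18 members were listed at 0 in at least 1. Just inside the limit on the difference lay GM2A at 5.04, PTGDS at 5.04 and ARSL at 5.05 on the log2 scale, and just outside it GPRC5A at 4.99, GEM at 4.99 and PCOLCE at 4.98. Members just inside the limit on the level included BMAL2 at 10.2 and STEAP1 at 11.2 FPKM, and outside it lay an unnamed gene at 9.76, PLPP2 at 9.67 and PTPRU at 9.64 FPKM.

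The contrast of high against low backfat was not used to choose the members. It was tested with limma on log2(FPKM + 0.1) over all 16239 genes with a mean above 0.05 FPKM in back fat, with p-values adjusted by the Benjamini-Hochberg method over all of them. No member passed an adjusted p under 0.01 with a log2 fold change of at least 1 in limma, and among all genes tested the share called was 0.0%. The smallest adjusted p of a member in limma was 0.14. At an unadjusted p under 0.05 there were 38 members, 21 higher and 17 lower in HBF, or 23.9%, against 13.6% of all genes (9.36% higher and 4.22% lower) and 19.3% of the 4663 genes above 10 FPKM in back fat. The groups did not overlap for 33 members, or 20.8%, against 20.4% of all genes and 25.6% of the genes above 10 FPKM in back fat, so by this measure the members did not exceed the background. Their median log2 fold change was 0.02, with 81 members above 0 and 78 below, beside 0.09 over all genes tested. The split between directions depended on scaling and on single libraries. It was 15 higher and 23 lower after scaling by median of ratios, 17 and 24 after quantile normalization, 15 and 27 without LBF2, and 30 and 13 without LBF3.

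Members of lipid synthesis mostly had lower means in HBF. Of 11 members that make fatty acids, triglyceride, sterol or NADPH, 10 had a log2 fold change below 0 with a median of -0.38, and 3 of them, DGAT2, TKT and LSS, had an unadjusted p under 0.05 in limma. This is 27.3%, against 4.22% of all genes lower and 13.6% in either direction. DGAT2, which joins the last fatty acid to form triglyceride, was at 214, 154 and 91.5 FPKM in LBF and 48.0, 29.7 and 85.2 FPKM in HBF (chromosome 9, 10032163 to 10066082). Its log2 fold change was -1.54 (SE 0.44, limma adjusted p = 0.27), and the lowest LBF library was only just above the highest HBF library. TKT, the transketolase of the pentose phosphate pathway that also yields NADPH for fat synthesis, was at 380.4, 344 and 314 FPKM in LBF and 153, 181 and 209 FPKM in HBF (chromosome 13, 35348921 to 35377518). All LBF libraries lay well above all HBF libraries, with a log2 fold change of -0.94 (SE 0.17, limma adjusted p = 0.204). LSS, which closes the ring of lanosterol on the way to cholesterol, was at 74.3, 49.9 and 51.6 FPKM in LBF and 39.8, 23.1 and 29.6 FPKM in HBF, again without overlap (log2 fold change -0.93, limma adjusted p = 0.249). With 1 library left out, 3 to 5 of the 11 had an unadjusted p under 0.05 and were lower (5 without LBF2), and 1 was higher without HBF3. The number below 0 was 8 without LBF1, LBF3 or HBF3.

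The other members of lipid synthesis differed by less than the spread between their libraries. SCD had the highest level of the group and the widest spread in FPKM, with 3669, 446 and 874 FPKM in LBF and 1356, 267 and 743 FPKM in HBF. LBF1 alone was far above the other 5 libraries, and the log2 fold change was -0.80 (SE 0.86). As a ratio PCK1 spread more widely, from 8.23 to 138 FPKM in back fat. ELOVL6, which lengthens palmitate to stearate, had a log2 fold change of -0.32, THRSP, a thyroid hormone responsive gene of lipid synthesis, -0.24, PC, pyruvate carboxylase, -0.38, PGD, an NADPH-forming dehydrogenase, -0.42, ELOVL5 -0.17 and PCK1 -0.13. HACD2, a dehydratase of fatty acid elongation, was the one above 0, at 0.58. Among genes of fatty acid and triglyceride synthesis that are no members, 19 were tested in back fat, and 3 were higher (SCD5, FADS2, ACSL5) and 3 lower (ME1, ACSS2, SLC25A1) in HBF at an unadjusted p under 0.05. This is 31.6%, against 13.6% of all genes (9.36% higher and 4.22% lower). The groups did not overlap for 7 of the 19, 3 higher and 4 lower (36.8%, against 20.4% of all genes).

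Both members of serine synthesis had lower means in HBF. PSAT1, the aminotransferase of that pathway, was at 240.0, 241 and 214 FPKM in LBF and 101, 115 and 91.4 FPKM in HBF (chromosome 1, 231142673 to 231172364), means of 232 ± 15.3 and 102 ± 11.8 (SD, n = 3). The libraries of each group lay close together and the groups far apart. Its log2 fold change was -1.18 (SE 0.14), and its limma adjusted p of 0.14 was the smallest among the members. It ranged from -1.27 to -1.10 when each library was left out in turn. PHGDH, the dehydrogenase that opens the pathway, was at 42.5, 9.77 and 22.9 FPKM in LBF and 14.4, 6.83 and 11.6 FPKM in HBF, with overlapping groups and a log2 fold change of -1.01 (SE 0.53, limma adjusted p = 0.442), which ranged from -1.57 to -0.51 when each library was left out in turn.

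**Figure D2:**
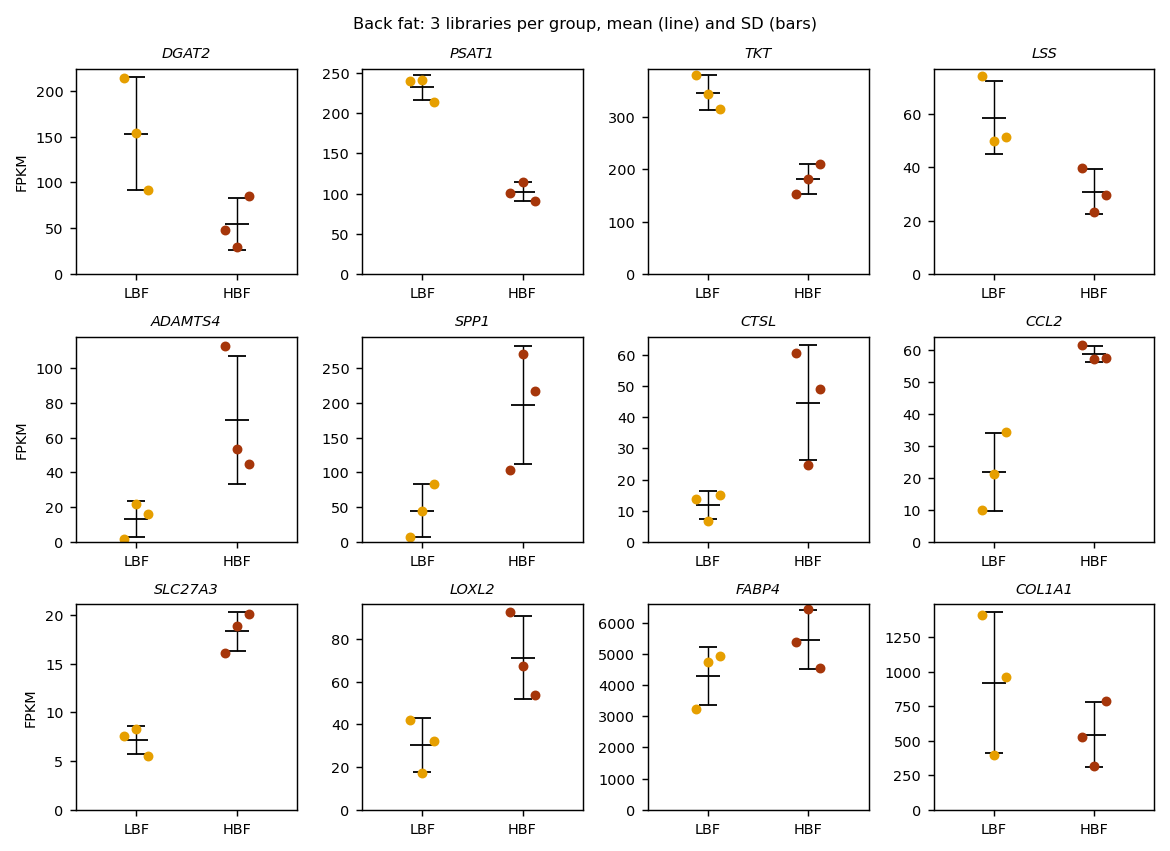
FPKM of 12 members in the 3 LBF and 3 HBF libraries (points), with the group mean (line) and SD (bars). DGAT2, PSAT1, TKT and LSS are lower in every HBF library, ADAMTS4, SPP1, CTSL, CCL2, SLC27A3 and LOXL2 are higher in every HBF library, and the groups of FABP4 and COL1A1 overlap.

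Members assigned to macrophages, lysosomes and innate immunity, called macrophage members below, mostly went the other way. Of 15 such members, 14 had a log2 fold change above 0 with a median of 1.03, and 7 had an unadjusted p under 0.05 in limma, all higher in HBF (SPP1, CTSL, CCL2, GMFG, LIPA, CTSH and CD209). Of all genes 9.36% were higher at that limit, and 60.4% had a log2 fold change above 0. The groups did not overlap for 4 of the 15, or 26.7%, against 20.4% of all genes. SPP1, which encodes osteopontin, was at 6.94, 45.0 and 83.4 FPKM in LBF and 104, 269.7 and 217 FPKM in HBF (chromosome 8, 131077786 to 131085334), a log2 fold change of 2.61 (SE 0.87, limma adjusted p = 0.302). CTSL, a lysosomal cysteine protease, was at 13.7, 6.65 and 15.0 FPKM in LBF and 60.4, 24.5 and 49.0 FPKM in HBF (chromosome 10, 27668523 to 27674705), a log2 fold change of 1.90 (SE 0.42, limma adjusted p = 0.227). CCL2, a chemokine that attracts monocytes, was at 10.05, 21.4 and 34.2 FPKM in LBF and 61.6, 57.1 and 57.6 FPKM in HBF (chromosome 12, 40798109 to 40800013), a log2 fold change of 1.59 (SE 0.40, limma adjusted p = 0.243). In all 3 genes the lowest HBF library was above the highest LBF library, and LBF spread much more widely than HBF in SPP1 and CCL2. GMFG, a regulator of the actin branching complex in blood cells, had 14.2, 42.4 and 98.5 FPKM in LBF, whereas each HBF library held 115 FPKM.

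LBF1 and LBF3 set much of the size of this pattern. LBF1 was the lowest library for SPP1, CCL2 and GMFG, and LBF3 was the highest LBF library for each of them. LIPA, the acid lipase of lysosomes, was at 80.0, 116 and 161 FPKM in LBF and 183, 227 and 146 FPKM in HBF, where LBF3 lay inside the range of HBF. LIPA also stood in the list of adipokines and secreted proteins, so it is not particular to macrophages here. MSR1, a scavenger receptor of macrophages, was at 1.31, 4.57 and 17.0 and 9.16, 23.2 and 13.3 FPKM, where LBF3 exceeded 2 of the HBF libraries. The number of the 15 at an unadjusted p under 0.05 and higher in HBF was 13 without LBF3, 4 without LBF1, HBF2 or HBF3, and 3 without LBF2 or HBF1. It was 2 with no filter on expression, 3 with eBayes without trend and 5 after scaling by median of ratios, while 14 of the 15 lay above 0 under each of these. A separate list of 7 macrophage markers, none of them a member, summed to between 84.5 and 206 FPKM in LBF, lowest in LBF1, and to between 185 and 218 FPKM in HBF, with no marker at 0 in all fat libraries. Of these, 4 (CSF1R, CD68, AIF1 and C1QB) had an unadjusted p under 0.05, all higher in HBF (57.1%, against 9.36% of all genes higher). The groups did not overlap for 1 of the 7 (14.3%, against 20.4% of all genes), and 1 was below 0, at a log2 fold change of -0.32. The part of these markers in the difference of the members was not tested. GM2A, the only 1 of the 15 below 0, had an unadjusted p of 0.61 in limma, and without LBF2 it was lower at an unadjusted p under 0.05 with a log2 fold change of -0.90.

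Members of the extracellular matrix split. Of 13 such members 7 had a log2 fold change above 0 and 6 below, beside 60.4% of all genes above 0. At an unadjusted p under 0.05, 3 were higher and 1 lower (30.8%, against 13.6% of all genes). Without LBF2, 3 were higher and 4 lower, and the median log2 fold change of the group was -0.14 instead of 0.26. The 3 fibrillar collagens among them were the most abundant and had lower means in HBF with overlapping groups. COL3A1 was at 3543, 1076 and 2883 FPKM in LBF and 1152, 736 and 1598 FPKM in HBF, a log2 fold change of -1.01 (SE 0.51). COL1A1 and COL1A2 had log2 fold changes of -0.67 and -1.03. LBF1 and LBF3 were the highest of the 6 libraries for all 3 collagens, whereas LBF2 lay among the HBF libraries. POSTN, periostin, was the 1 matrix member lower at an unadjusted p under 0.05, with 192, 146 and 271 FPKM in LBF and 60.5, 80.2 and 134 FPKM in HBF (log2 fold change -1.18, limma adjusted p = 0.27).

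The matrix members also include enzymes that cut or cross-link it, described one by one with no count of their own. ADAMTS2, which trims procollagen, had a log2 fold change of -0.27. ADAMTS4, an aggrecanase, had the largest difference of all members with a name, at 1.98, 21.9 and 16.1 FPKM in LBF and 113, 53.5 and 44.9 FPKM in HBF (chromosome 4, 89260354 to 89269238). Its log2 fold change was 2.84 (SE 0.86, limma adjusted p = 0.279), and it was 1.78 without the lowest library, LBF1. LOXL2, which cross-links collagen, was at 42.2, 17.0 and 32.2 FPKM in LBF and 92.3, 67.4 and 53.9 FPKM in HBF (log2 fold change 1.28, limma adjusted p = 0.262). MMP19, a matrix metalloproteinase, was at 20.2, 38.5 and 52.6 and 74.3, 59.6 and 63.4 FPKM, and MMP14, the membrane-bound one, at 85.9, 82.6 and 84.6 and 102, 111 and 92.8 FPKM, both without overlap. The 7 markers of fibroblasts and fat cell progenitors, which include COL1A1 and COL3A1, summed to between 2044 and 6323 FPKM in LBF and between 1410 and 3237 FPKM in HBF. Their part in these differences was not tested.

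Outside these groups, SLC27A3, of the fatty acid transport protein family, had the next smallest adjusted p after PSAT1. It was at 7.59, 8.31 and 5.56 FPKM in LBF and 16.1, 18.8 and 20.1 FPKM in HBF (chromosome 4, 95898780 to 95903599), and the highest LBF library lay well below the lowest HBF library. Its log2 fold change was 1.36 (SE 0.19, limma adjusted p = 0.154). IGFBP4, which binds insulin-like growth factors, was at 73.7, 52.9 and 29.9 and 95.2, 121 and 81.4 FPKM, and BOK, of the BCL2 family, at 15.8, 18.2 and 14.9 and 38.3, 37.4 and 20.8 FPKM, both higher in every HBF library. ENSSSCG00000015810 and ENSSSCG00000008240, which carry no name here, had log2 fold changes of 2.60 and 1.65 without overlap. Lower in every HBF library were MGST1, a microsomal glutathione transferase, at 125, 130.5 and 124 FPKM in LBF and 88.8, 81.0 and 59.0 FPKM in HBF, and APCDD1, an inhibitor of Wnt signalling, at 58.2, 59.5 and 75.5 and 40.9, 35.0 and 32.8 FPKM. CYP2A19, a cytochrome P450, had the largest negative log2 fold change at -2.39 (SE 1.09), yet HBF3 at 123 FPKM lay above LBF3 at 93.1 FPKM, and it was -1.05 without HBF1.

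Most members that define fat cells had overlapping groups in back fat. The exception was TRARG1, a fat cell protein of glucose transporter traffic, at 121, 199.7 and 210.3 FPKM in LBF and 263, 292 and 215 FPKM in HBF (log2 fold change 0.57, limma adjusted p = 0.375). FABP4 was at 3225, 4742 and 4925 FPKM in LBF and 5378, 6425 and 4546 FPKM in HBF, with overlapping groups and a log2 fold change of 0.35 (SE 0.34). ADIPOQ was at 2391, 2049 and 2834 FPKM in LBF and 1667, 4071 and 1498 FPKM in HBF, where HBF2 was the highest and HBF3 the lowest of the 6 libraries (log2 fold change -0.15, SE 0.42). PLIN1 had a log2 fold change of 0.16 (SE 0.23), CIDEC, which fuses droplets, -0.49 (SE 0.23), and the transcription factors PPARG and CEBPA, which direct fat cell differentiation, -0.20 and 0.45. LGALS12, a galectin of fat droplets, was lower at an unadjusted p of 0.0413 in limma, with 32.4, 37.3 and 18.7 FPKM in LBF and 11.8, 20.4 and 18.7 FPKM in HBF. PNPLA3, a droplet lipase, was higher at 34.4, 7.63 and 7.75 and 53.4, 21.5 and 41.0 FPKM (limma unadjusted p = 0.0459), and in both genes the groups overlapped. Of 17 genes of lipid droplets and lipolysis that are no members, 1 (CAVIN1) had an unadjusted p under 0.05, and 7 were higher in HBF without overlap (41.2%, against 20.4% of all genes in either direction) and 0 lower. Their median log2 fold change was 0.45, with 13 above 0.

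In longissimus the members were read in the tissue where they were low. Of the 159 members, 151 had a mean above 0.05 FPKM there and were tested, and 8 were not. With limma over 14292 genes, no member passed an adjusted p under 0.01 with a log2 fold change of at least 1, and among all genes tested the share called was 0.0%. At an unadjusted p under 0.05 there were 20 members, or 13.2%, all 20 higher in HIMF, against 7.02% of all genes (4.51% higher and 2.52% lower). Some members, such as ADIG and OPRL1, entered the test only through their HIMF values. With no filter on expression 17 of 159 members were at that limit, all higher in HIMF, or 10.7% against 3.98% of all genes. The groups did not overlap for 26 members, 25 higher in HIMF and 1 lower (PRRX2, a homeobox gene), against 7.93% of all genes higher and 4.74% lower. The median log2 fold change was 0.25, with 109 of 151 members above 0, beside 0.04 over all genes, where 54.0% were above 0.

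Libraries differed in the members as a whole. The median deviation of the members from their mean in muscle was -0.41 on the log2 scale in LIMF1, 0.04 in LIMF2 and -0.07 in LIMF3, and 0.33, -0.05 and 0.22 in HIMF1, HIMF2 and HIMF3. LIMF1 was thus the lowest and HIMF1 the highest, and LIMF2 lay above HIMF2. Over all genes tested the median deviation was -0.15, -0.01 and 0.06 in LIMF1, LIMF2 and LIMF3 and 0.01, -0.06 and 0.09 in HIMF1, HIMF2 and HIMF3, so LIMF1 was the lowest there too. Without LIMF3 22 of 152 members had an unadjusted p under 0.05, or 14.5% against 14.0% of all genes, so that the share in either direction no longer stood above the background. Of these 19 were higher and 3 lower in HIMF, beside 9.44% of all genes higher and 4.53% lower, and the median log2 fold change was 0.36, beside 0.09 over all genes. Without LIMF2 27 were higher and 1 lower (18.9% against 6.13%), and without HIMF1 15 were higher and 0 lower (10.1% against 5.64%). Without LIMF1 16 were higher and 3 lower (12.5% against 6.29%), and the median log2 fold change was 0.10.

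The members higher in HIMF included fat droplet and fat cell genes. PLIN1 was at 0.975, 1.70 and 0.343 FPKM in LIMF and 4.90, 3.67 and 2.71 FPKM in HIMF, means of 1.01 ± 0.680 and 3.76 ± 1.10 (SD, n = 3). Every HIMF library was above every LIMF library, and the log2 fold change was 1.98 (SE 0.50, limma adjusted p = 0.544). ADIPOQ was at 4.27, 6.46 and 1.31 FPKM in LIMF and 21.8, 8.36 and 11.2 FPKM in HIMF, a log2 fold change of 1.90 (SE 0.58, limma adjusted p = 0.594). HIMF1 was far the highest, and the groups did not overlap. TRARG1 was at 0.538, 0.495 and 0.0874 and 1.39, 1.07 and 0.802 FPKM, and ADIG, adipogenin, had listed values of 0, 0.0392 and 0 FPKM (LIMF) and 0.0648, 0.232 and 0.176 FPKM (HIMF). CIDEC was at 0.523, 1.12 and 0.308 FPKM in LIMF and 1.96, 2.11 and 0.826 FPKM in HIMF, where LIMF2 exceeded HIMF3 (log2 fold change 1.26, limma adjusted p = 0.675).

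SDR16C5, a retinol dehydrogenase, had the largest difference of the members apart from COX1. It was at 0.257, 0.224 and 0.117 FPKM in LIMF and 2.07, 2.11 and 1.37 FPKM in HIMF (chromosome 4, 75586346 to 75598985), so that the lowest HIMF library was above 5 times the highest LIMF library. Its log2 fold change was 2.71 (SE 0.32, limma adjusted p = 0.362) and lay between 2.50 and 2.90 with each library left out in turn. In back fat, where it averaged 514 FPKM, its log2 fold change was 0.46 (SE 0.26). CYP4B1, a fatty acid hydroxylase of the cytochrome P450 family, was at 0.0231, 0.10 and 0.0946 FPKM in LIMF and 0.788, 0.461 and 0.356 FPKM in HIMF (log2 fold change 1.85, limma adjusted p = 0.464). AQP3, a channel for water and glycerol, was at 1.51, 2.47 and 0.788 FPKM in LIMF and 5.18, 5.22 and 5.17 FPKM in HIMF (chromosome 10, 33045374 to 33050285), a log2 fold change of 1.78 (SE 0.37, limma adjusted p = 0.475). The 3 HIMF libraries of AQP3 were almost equal, and both genes were without overlap.

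**Figure D3:**
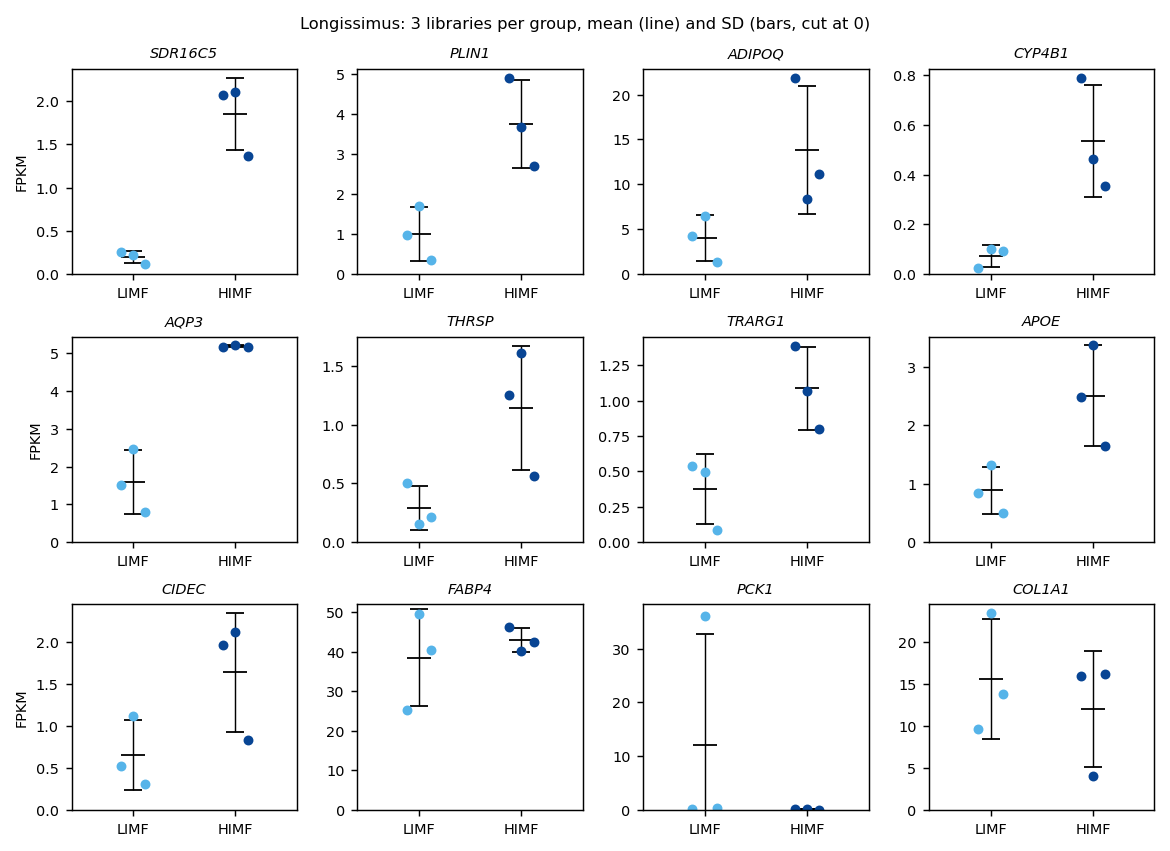
FPKM of 12 members in the 3 LIMF and 3 HIMF libraries (points), with the group mean (line) and SD (bars, cut at 0). The first 8 members are higher in every HIMF library, CIDEC and FABP4 overlap between the groups, PCK1 is above 1 FPKM only in LIMF2, and COL1A1 has its lowest value in HIMF2.

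Of the 11 members of lipid synthesis, 9 had a log2 fold change above 0 in muscle, and 2 (18.2%, against 4.51% of all genes higher) had an unadjusted p under 0.05. THRSP was at 0.501, 0.152 and 0.215 FPKM in LIMF and 1.25, 1.61 and 0.566 FPKM in HIMF (log2 fold change 1.67, limma adjusted p = 0.549). ELOVL6 was at 0.698, 0.352 and 0.558 and 1.28, 1.32 and 1.01 FPKM (log2 fold change 1.06, limma adjusted p = 0.549). In both genes the groups did not overlap. DGAT2, TKT and LSS, the 3 that were lower in HBF, had log2 fold changes of 0.14, 0.25 and 0.32 in muscle with overlapping groups. PCK1 had a log2 fold change of -2.65 (SE 1.78) with LIMF2, and of -0.23 without it.

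Further members higher in HIMF at an unadjusted p under 0.05 in limma were secreted proteins and receptors. APOE, a lipoprotein carrier of fat cells and macrophages, was at 0.846, 1.31 and 0.497 FPKM in LIMF and 2.49, 3.38 and 1.65 FPKM in HIMF (log2 fold change 1.43, limma adjusted p = 0.544). SFRP5, a secreted Wnt antagonist, was at 0.991, 0.851 and 1.01 and 1.95, 1.97 and 1.54 FPKM. KLB, the coreceptor of FGF21, was at 0.311, 0.303 and 0.168 and 0.485, 0.648 and 0.494 FPKM, and OPRL1, the nociceptin receptor, at 0.0357, 0.0297 and 0.0183 and 0.251, 0.181 and 0.0872 FPKM. In all of these every HIMF library was above every LIMF library. The LIMF values of OPRL1 all lie under the 0.05 FPKM filter, so it was tested only through HIMF and no support is drawn from it. The rest of the 20 were THBS2, MMD, CYP4V2, GYG2, PTGR1 and ENSSSCG00000037791.

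Not all abundant members followed. FABP4 was at 25.3, 49.5 and 40.3 FPKM in LIMF and 46.1, 40.2 and 42.5 FPKM in HIMF, a log2 fold change of 0.21 (SE 0.27), and LIMF2 was the highest library. VIM had a log2 fold change of -0.21 (SE 0.27), and COL1A1, COL1A2 and COL3A1 had -0.52, -0.28 and -0.16, each with overlapping groups. Of the 15 macrophage, lysosome and innate immune members 0 had an unadjusted p under 0.05 in limma, against 7.02% of all genes. Their median log2 fold change was 0.28 with 13 above 0, and without LIMF1 7 were above 0. The 7 macrophage markers summed to between 10.1 and 22.7 FPKM in LIMF and between 7.69 and 18.4 FPKM in HIMF. COX1 had a log2 fold change of 5.99 from its listed zeros, and no difference is read from it. Of the 13 white fat cell markers 11 were tested, and 6 had an unadjusted p under 0.05 and were higher in HIMF, 4 of them members and the others LEP and GPD1. This is 54.5%, against 4.51% of all genes higher. The 3 other tested markers that are no members, LIPE, PNPLA2 and PLIN4, had log2 fold changes of -0.88, -0.50 and -0.20. Of 16 tested genes of lipid droplets and lipolysis that are no members, 11 were below 0 in HIMF, with a median log2 fold change of -0.37. At an unadjusted p under 0.05, 1 of these was higher (G0S2) and 2 were lower (PLIN2 and FITM2), or 18.8% against 7.02% of all genes. The 13 markers summed to 376 to 798 FPKM in LIMF and 745 to 882 FPKM in HIMF, but GPD1, the marker with the higher mean in muscle, alone held 177 to 491 and 535 to 720 FPKM of this. The 7 muscle fibre markers, with ACTA1 and CKM listed at 0 in part, summed to between 11203 and 24363 FPKM in LIMF and between 28641 and 35167 FPKM in HIMF. Their part in the members' difference was not tested.

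The difference between both contrasts was tested as 1 contrast over all 12 libraries, with the caveat that the selected trait differed between the tissues. By limma, 0 of 159 members had an adjusted p under 0.05, the share of all 15965 genes was 0.0%, and the smallest adjusted p of a member was 0.148. At an unadjusted p under 0.05 there were 35 members, or 22.0%, against 10.2% of all genes. In 27 of them the log2 fold change in fat was the lower one, and in 8 it was the higher one. Without HBF1 it was 21 members, or 13.2%, against 7.78% of all genes. SDR16C5 led with a difference of -2.25 (SE 0.37, limma adjusted p = 0.148), followed by CYP4B1 at -1.72 (SE 0.40). TKT had a difference of -1.19 (SE 0.32) and PLIN1 of -1.82 (SE 0.58), and on the other side SLC27A3 had 1.11 (SE 0.31). Only TRARG1 was higher without overlap in both HBF and HIMF, and 0 members were lower in both.

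**Figure D4:**
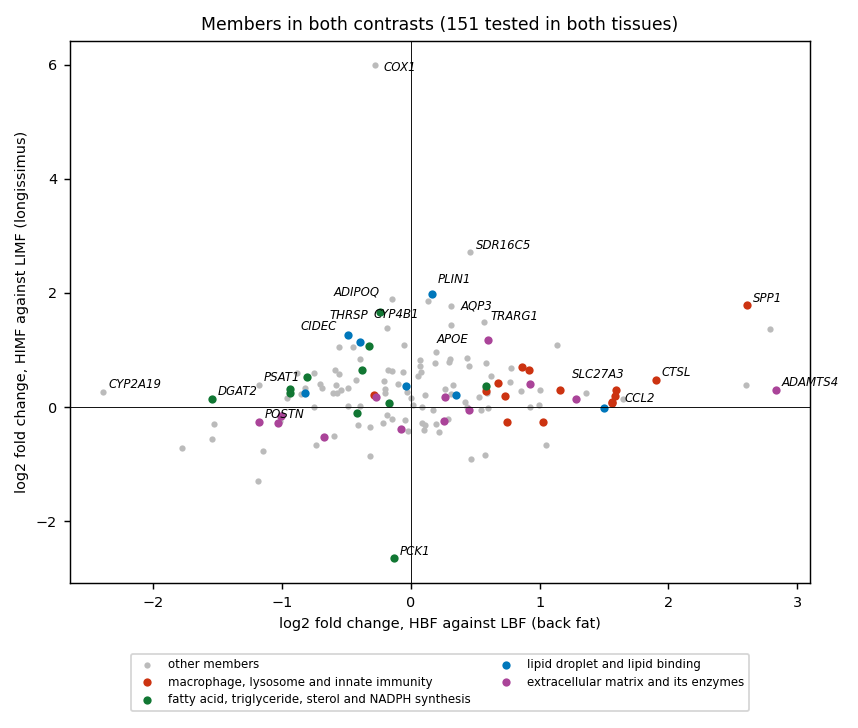
Log2 fold change of the 151 members tested in both tissues, HBF against LBF in back fat on the x axis and HIMF against LIMF in longissimus on the y axis, with 1 point per member coloured by role. Macrophage members (red) lie to the right of 0 in all but 1 case, lipid synthesis members (green) lie to the left in all but 1 case, and more points lie above 0 than below on the y axis, with COX1 (listed zeros) and PCK1 (LIMF2) at the ends.

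Covariation over the 6 back fat libraries is given as Pearson's r of log2(FPKM + 0.1), which describes these libraries only. The libraries share their group, and cell composition and scaling move many genes together, so no p is given. Over all 12561 pairs of members the median r was 0.01, with 4.68% of pairs above 0.8 and 3.48% below -0.8. Over genes above 10 FPKM in back fat the median was 0.06, with 5.04% and 3.45%. After centring each gene on its own group mean the medians were 0.03 and 0.05. The median r of the members was thus not above that of other genes of like level. The first 3 principal components held 37.3%, 28.7% and 14.0% of their variance.

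Within roles the median r differed. It was 0.65 among the 15 macrophage members, 0.61 among 5 S100 and annexin genes, 0.20 in lipid synthesis, 0.17 in the matrix group and -0.10 in the 7 droplet and lipid binding members. These medians come from groups set after the members were known. COL1A2 and COL3A1 had an r of 0.996 over the 6 libraries and of 0.999 after centring by group, and COL1A1 and COL1A2 had 0.98 and 0.99. The collagens also varied with ELOVL6 and PHGDH. The r of COL1A1 was 0.95 with ELOVL6 and 0.92 with PHGDH, and after centring by group 0.95 and 0.91, while in the 6 muscle libraries, without centring, it was -0.58 and 0.56. PHGDH had an r of 0.92 with SCD and 0.96 with PGD in fat. LBF1 held the highest value of COL1A1, ELOVL6, PHGDH, SCD and PGD, and HBF2 the lowest of COL1A1, PHGDH and SCD. The pairs given here were picked after their values were seen.

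Among macrophage members SPP1 and CCL2 had an r of 0.95 and, after centring by group, of 0.90. DGAT2 had an r of -0.83 with SPP1 and -0.87 with CCL2, which were -0.59 and -0.61 after centring by group. TKT had -0.76 and -0.89 with these genes, which were -0.23 and -0.56 after centring. LSS had -0.93 and -0.86, which were -0.83 and -0.52 after centring. FABP4 had an r of 0.92 with SLC11A1, a metal transporter of phagocytes, and -0.90 with DGAT2. Markers of the fat cell were not a block in back fat. PLIN1 had an r of 0.70 with ADIPOQ and 0.85 with FABP4 but -0.50 with CIDEC, and PPARG had -0.18 with CEBPA. In the 6 muscle libraries PLIN1 had an r of 0.96 with ADIPOQ, 0.93 with CIDEC and 0.90 with CEBPA, yet 0.38 with FABP4. These muscle values are not centred by group, and PLIN1, ADIPOQ and CIDEC had higher means in HIMF. They therefore include the difference between the groups.

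**Figure D5:**
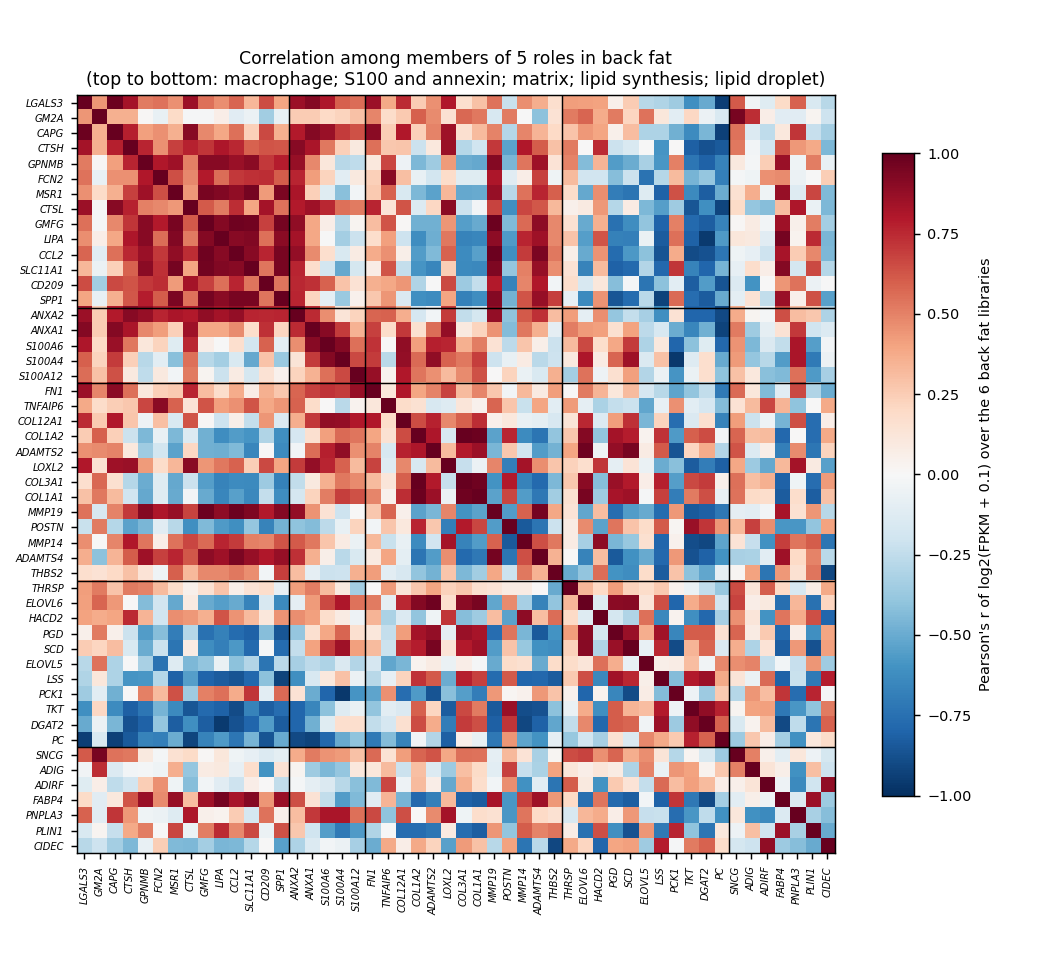
Pearson's r of log2(FPKM + 0.1) over the 6 back fat libraries between members of 5 roles, with red for positive and blue for negative values and black lines between the roles. The macrophage block at the upper left, in which 14 of the 15 members are drawn, is mostly red (median of 0.65 over all 15), it is mostly blue against DGAT2, TKT and LSS, and the droplet block at the lower right has a median of -0.10. The values are not centred by group, so they include the difference of HBF and LBF.

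The spread over the fat libraries varied widely between members. The highest library was under 2 times the lowest for 36 members and above 10 times for 18, and the median ratio was 2.78. By role the median ratio was 1.94 for cytochromes P450 and detoxification, 1.99 for droplet and lipid binding, 2.92 for lipid synthesis, 4.45 for matrix and 5.61 for macrophage members. The members closest to the median profile of all members over the 6 libraries were FFAR4, a receptor for long-chain fatty acids, SNCG, a synuclein of fat and nerve, LGALS3, a galectin of macrophages, RARRES1 and GM2A. FFAR4 had an r of 0.92 with that profile. LAYN, a hyaluronan receptor, at -0.88, ENPP2, which makes lysophosphatidic acid, PC and 2 unnamed genes were the farthest from it.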

How the data were processed

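RNA of back subcutaneous fat and longissimus dorsi was sequenced as 12 libraries. The authors used fastp to filter the reads and HISAT2 to align them on Sscrofa11.1, and the deposited FPKM per Ensembl gene came from Cufflinks 2.2.1 (version per the labels). FPKM holds no counts, so no counting error or detection limit is given, and no scaling between libraries beyond FPKM is stated. The 7 identifiers on 2 rows were summed. Values were compared as log2(FPKM + 0.1), which understates the change of low genes, with limma 3.58.1 (lmFit, eBayes with trend) in R 4.3.3, over genes with a mean above 0.05 FPKM in the tissue, adjusted by Benjamini-Hochberg over all of them. The test was tested on simulated data. The members and gene lists were chosen with earlier results of these data known, and the roles after the members were seen. Genes given by name are the 12 highest in fat, the 12 and 8 with the largest non-overlapping difference in fat and muscle, the 5 highest in muscle and those at 0 there, members of the role lists, those beside the limits, and the 5 most and least like the median profile. Others were added after their values were seen, and 1 member is counted but not reported here. An exact two-sided permutation of 3 against 3 libraries cannot give under 0.10. RefSeq positions on Sscrofa11.1 were matched by symbol for 127 members. Alternatives were pseudocounts of 1 and 0.01, other filters and scalings, a replicate block, and each library left out.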

Additional observations from a re-analysis of the deposited data

Results flagged for a closer look

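ENSSSCG00000037791, which carries no gene name here, was lower in every HBF library and higher in every HIMF library. It was at 21.9, 22.0 and 26.9 FPKM in LBF and 18.0, 10.9 and 19.3 FPKM in HBF, and at 0.239, 0.359 and 0.353 FPKM in LIMF and 0.490, 0.557 and 0.612 FPKM in HIMF. Its log2 fold change was -0.59 in back fat and 0.66 in longissimus. The difference between them was -1.25 (SE 0.34) with an adjusted p of 0.303 in limma over all genes, so it did not pass.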

How the results depend on the processing

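Under the alternatives tried, all of them fits with limma, 0 members were called in back fat. In longissimus 1 member was called with all 12 libraries in 1 fit, SDR16C5, and for the difference between the tissues 2 were called without LIMF3, MEIOB and SDR16C5. In back fat 23 members instead of 38 had an unadjusted p under 0.05 with no filter on expression (14.5% against 7.49% of all genes), and 31 to 43 with each library left out (19.5% to 27.0%, against 8.82% to 14.5%). In longissimus 9 instead of 20 did when only genes with a mean FPKM above 1 were tested, where 60 members were tested (15.0% against 8.11%), and 15 to 28 with each library left out (10.1% to 18.9%, against 3.63% to 14.0%, the last without LIMF3). For the difference between the tissues it was 21 to 39 instead of 35 with each library left out (13.2% to 24.5%, against 7.59% to 16.0%). The number of members was 62 with a pseudocount of 1, 184 with a pseudocount of 0.01 and 73 with median-of-ratios scaling instead of 159, and 154 to 171 with each library left out. The muscle level was 1.63% of the fat level with 0.1 FPKM added to both means, 2.49% with median-of-ratios scaling and 1.16% to 1.31% with each library left out, instead of 1.22%. The median r in back fat was -0.01 to 0.04 with each library left out. With the replicate number as a block, 53 members in back fat (33.3% against 13.9% of all genes), 19 in longissimus (12.6% against 6.54%) and 34 for the difference (21.4% against 10.2%) had an unadjusted p under 0.05, and 0 were called. Within a tissue the numbers were not taken to pair the libraries, since deviations of same-numbered libraries correlated at 0.07, 0.13 and 0.01 in back fat and at -0.07, 0.05 and -0.05 in longissimus. Between the tissues they correlated at 0.13, 0.24 and 0.06 for LBF with LIMF and at -0.05, -0.05 and -0.04 for HBF with HIMF, so that not every pair deviated together. Differently numbered libraries lay between -0.17 and 0.055 for LBF with LIMF, below all same-numbered pairs there (lowest 0.056). They lay between -0.06 and 0.11 for HBF with HIMF. The sample codes repeat their numbers in both tissues, and whether same-numbered libraries share a pig was not tested. The difference test leaves out any such pairing. The direction of named members was kept in 778 of 810 values in back fat and 700 of 741 in longissimus. It turned in at least 1 setting for 17 of 54 members in back fat, among them SCD, ELOVL6, THRSP, ADIPOQ, PLIN1, FABP4, PPARG, PCK1 and RBP4, and for 21 of 51 in longissimus, among them FABP4, DGAT2, VIM, COL1A1, COL1A2 and COL3A1. The cause of these changes was not tested beyond the settings themselves, and FPKM without counts limits the precision that can be given to the low muscle values.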

Other observations

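Retinoid handling was a further group among the members. RBP4, the plasma carrier of retinol, was at 46.2, 46.8 and 80.3 FPKM in LBF and 81.6, 36.8 and 68.7 FPKM in HBF, and RDH5, a retinol dehydrogenase, was at 52.4, 29.2 and 82.7 FPKM in LBF and 38.4, 6.49 and 20.9 FPKM in HBF, where HBF2 was far the lowest library. Genes of the prostaglandin pathway were members as well. PTGR1, a prostaglandin reductase, averaged 284 FPKM in back fat, and PTGES, a prostaglandin E synthase, was at 14.3, 13.2 and 8.05 FPKM in LBF and 23.2, 10.7 and 20.5 FPKM in HBF. S100A4 and S100A6, small calcium-binding proteins, varied more between libraries than between groups, with S100A4 at 695, 46.6 and 127 FPKM in LBF and 428, 91.7 and 314 FPKM in HBF, and their r over the 6 libraries was 0.92.

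Besides PCK1, further members had their highest muscle value in LIMF2, the muscle library with the kidney-expressed genes. MGST1 had 0.190, 2.15 and 0.733 FPKM in LIMF against at most 0.800 FPKM in HIMF, and ANPEP, a brush border aminopeptidase, had 0.845, 2.78 and 0.541 FPKM in LIMF against at most 0.967 FPKM in HIMF. The 2 red cell markers in the table summed to between 251 and 621 FPKM in LBF and between 48.8 and 191 FPKM in HBF, and the 6 endothelial markers to between 175 and 362 FPKM in LBF and between 302 and 527 FPKM in HBF. Their part in the members' values was not tested.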
